A study of Arabidopsis thaliana with 13 samples.

Results

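Cells carrying the CEI marker (cortex/endodermis initial, the stem cell of the ground tissue) were compared between wox5-1 mutant and wild-type Arabidopsis thaliana roots. The comparison takes the 6 CEI-marker libraries of a series of 13, 3 from wox5-1 and 3 from the wild type. It covers 19802 of the 33560 genes in the deposited table, namely those with at least 1 FPKM in at least 3 of the 6 libraries. FPKM counts fragments after dividing by transcript length in kilobases and by the mapped total in M (mega). The plants were wox5-1 mutants and wild type, both labelled ecotype Col-0 and both carrying the reporter CYCD6::GUS-GFP, in which the promoter of the D-type cyclin CYCD6;1 drives a fluorescent fusion protein. Roots were protoplasted at 5 days and fluorescent cells were sorted, so the population is defined by the activity of that promoter in each genotype. The other 7 libraries came from cells sorted by WOX5::GFP, a marker of the quiescent centre (QC), in wox5-1 (4) and the wild type (3). Libraries of a group are biological replicates by their titles, which do not say whether a library pools several sorts.

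WOX5 is a homeobox transcription factor made in the QC, the group of rarely dividing cells at the centre of the niche, and it keeps the neighbouring stem cells undifferentiated. The cortex/endodermis initial lies next to the QC. There the transcription factors SHR and SCR switch on CYCD6;1, and the asymmetric division that follows separates the cortex from the endodermis. The series is about feedback between WOX5, PAN (a bZIP transcription factor) and AN3 (GRF-INTERACTING FACTOR 1, a transcriptional coactivator).

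On the first principal component the libraries did not separate by genotype. That component, with 39.7% of the variance, placed wox5-1 library 1 with wild-type libraries 1 and 3, and wox5-1 libraries 2 and 4 with wild-type library 4. The highest of the 15 pairwise correlations of log2(FPKM + 1) were within genotype, 0.878 between wox5-1 libraries 2 and 4 and 0.861 between wild-type libraries 1 and 3. The correlation was 0.841 between wox5-1 library 4 and wild-type library 4, against 0.755 and 0.705 between wild-type library 4 and wild-type libraries 1 and 3. Genes of photosynthetic tissue summed to 22700 FPKM in wox5-1 library 1, against 241.7 and 150.8 FPKM in wox5-1 libraries 2 and 4 and 60.04 to 128.7 FPKM in the wild type. Genes of the root cap summed to 2876 FPKM in wild-type library 4, against 233 to 410.3 FPKM in wox5-1 and 193.7 and 25.06 FPKM in wild-type libraries 1 and 3. Estimated depth lay between 16.2 and 27.8 M fragments over the 6 libraries. Within each genotype the libraries are numbered as in the deposited table, and values are given below in that order, 1, 2 and 4 for wox5-1 and 1, 3 and 4 for the wild type.

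**Figure D1:**
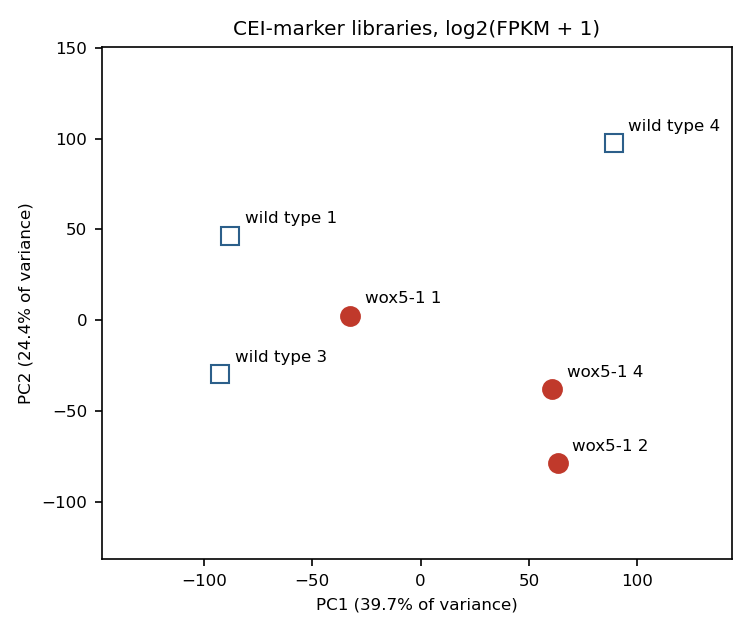
The 6 CEI-marker libraries on the first 2 principal components of log2(FPKM + 1), with the share of the variance on each axis (wox5-1, filled circles; wild type, open squares). On the first axis wox5-1 library 1 lies on the side of wild-type libraries 1 and 3, and wild-type library 4 lies on the side of wox5-1 libraries 2 and 4.

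WOX5 (AT3G11260), the mutated gene, had 0, 0 and 0.207 FPKM in wox5-1 cells, against 8.82, 27.3 and 0 FPKM in wild-type cells. Wild-type library 4 is listed at 0, so WOX5 cannot check the label of that library. With only 2 of 6 libraries at 1 FPKM or more the gene was below the filter, and its log2 change of -2.62 (SE 1.18, adjusted p = 0.754) comes from limma's fit without the filter. In QC-marker cells, where the gene is chiefly expressed, its level was 0 to 0.114 FPKM in wox5-1 and 163 to 262 FPKM in wild-type cells.

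The other 5 genes of the study network were all lower on average in wox5-1 (median log2 change -1.09), and none passed the test. SHR (AT4G37650), which moves from the stele into the ground tissue, had 0.570, 3.96 and 0.562 FPKM in wox5-1 cells, against 5.09, 7.85 and 4.31 FPKM in wild-type cells. The genotypes did not overlap for SHR, although wox5-1 library 2 came close to wild-type library 4, and the log2 change was -1.52 (SE 0.62, limma adjusted p = 0.771). SHR was the 1 of these 5 without overlap (20%, against 3.96% of all genes lower without overlap). PAN (AT1G68640) had 2.28, 2.60 and 3.91 FPKM in wox5-1 cells, against 17.3, 11.95 and 0.644 FPKM in wild-type cells. AN3 (AT5G28640) had 134.9, 49.1 and 24.1 FPKM in wox5-1 cells, against 243, 305.7 and 21.2 FPKM in wild-type cells. For both genes wild-type libraries 1 and 3 lay above every wox5-1 library and wild-type library 4 lay below every wox5-1 library. The log2 changes were -0.91 (SE 0.89) for PAN and -1.09 (SE 1.02) for AN3.

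SCR (AT3G54220), the partner of SHR, had 38.8, 22.4 and 11.2 FPKM in wox5-1 cells, against 35.1, 107.1 and 10.04 FPKM in wild-type cells. The genotypes overlapped, and the log2 change of -0.64 (SE 0.82) turned to 0.17 without wild-type library 3. CYCD6;1 (AT4G03270), whose promoter drives the reporter, had 4.33, 5.47 and 0.748 FPKM in wox5-1 cells, against 1.90, 22.7 and 7.55 FPKM in wild-type cells. The gene was thus detected in each CEI-marker library, though under 1 FPKM in wox5-1 library 4. The groups overlapped, with a log2 change of -1.10 (SE 0.86). Among the QC-marker libraries CYCD6;1 had 4.56 to 5.75 FPKM in wox5-1 and 0 to 2.07 FPKM in the wild type. Its presence in wox5-1 thus does not single out CEI-marker cells. CYCD6;1 and PAN overlap other annotated genes, and with strand use unknown their fragments cannot be told apart from those genes'. The same limit holds for CASP1, AT1G09750, CYCD3;1, SIM, LGO, EXPA7, LOG4, CA1, LHCB3, IAA5, SHY2, MP, ARF19, ARR9 and F3H, described below.

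**Figure D2:**
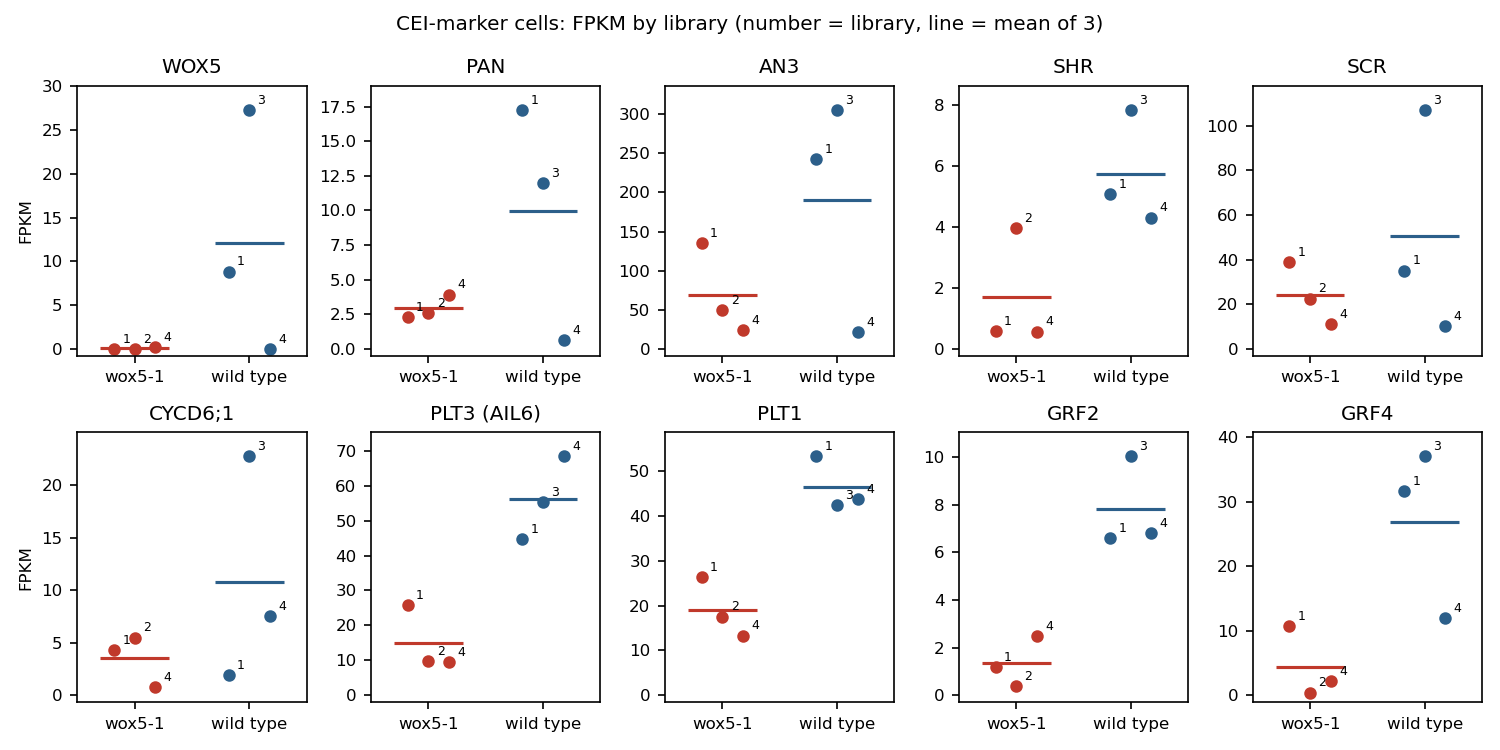
FPKM of WOX5, the 5 other network genes and 4 growth regulators in each CEI-marker library (wox5-1, red, on the left; wild type, blue, on the right; the number is the library and the line the mean of 3). SHR, PLT3, PLT1, GRF2 and GRF4 show no overlap between genotypes, and wild-type library 4 lies at the bottom of its group for WOX5, PAN, AN3, SHR, SCR and GRF4.

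Over all 19802 genes, limma on log2(FPKM + 1) called 0 genes (0%) at an adjusted p under 0.05, and the smallest adjusted p was 0.159. At an unadjusted p under 0.05 there were 1107 genes (5.59%), 747 of them higher (3.77%) and 360 lower (1.82%) in wox5-1. In 2189 genes (11.1%) the 3 wox5-1 values lay entirely on one side of the 3 wild-type values, above in 1404 (7.09%) and below in 785 (3.96%). That split was 1121 above and 1082 below after median-of-ratios scaling, and 1043 above and 1210 below after quantile normalization, so the excess of genes higher in wox5-1 depended on the scaling. The split at an unadjusted p under 0.05 was 663 higher and 503 lower after median-of-ratios scaling and 623 higher and 588 lower after quantile normalization. The median log2 change of all genes was 0.07, and 46.2% of genes had a change below 0. Low genes also shaped the excess. Without the filter 2164 genes lay above and 870 below (median log2 change 0.11), and with a filter at 5 FPKM 851 and 514 (0.02). Genes listed at 0 numbered 9718, 8255 and 5385 in wox5-1 libraries 1, 2 and 4, against 9031, 9797 and 11171 in wild-type libraries 1, 3 and 4. What part this had in the changes of low genes was not tested. The median SD within a group was 0.54 in wox5-1 and 0.70 in the wild type on the log2 scale.

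Leaving out single libraries made few calls. Without wild-type library 4, 3 genes were called (AT1G35143, AT4G18282 and the chloroplast-encoded ATCG00260) and 3330 had an unadjusted p under 0.05. Without wild-type library 1 these counts were 2 (AT4G22214 and the chloroplast-encoded ATCG00460) and 643, and without wox5-1 library 1, 2 or 4 they were 0 and 1804, 418 and 494. These called genes lie outside the rule for named genes and were named after their values were seen. In the library left out for their call, ATCG00260 had 427 FPKM and ATCG00460 302 FPKM, above every wox5-1 value (at most 344 and 155 FPKM). AT1G35143 had 73 FPKM there, within its wox5-1 range of 47.7 to 120 FPKM. AT4G18282 and AT4G22214 had 4.62 and 37.5 FPKM there, below every wox5-1 value (at least 25.4 and 169 FPKM). Without both wox5-1 library 1 and wild-type library 4, again 0 genes were called and 4635 had an unadjusted p under 0.05. In the 6-library fit no gene thus passed this test after adjustment over 19802 genes, and the values that follow describe the 6 libraries.

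Among genes with a symbol, at least 10 FPKM in the higher group and no overlap, the 12 with the smallest unadjusted p were taken in each direction, out of 345 higher and 200 lower in wox5-1. Each had a limma adjusted p of 0.771. Several of the genes higher in wox5-1 code for small secreted peptides or their precursors. SCRL15, a cysteine-rich secreted peptide, had 5.28, 13.3 and 13.4 FPKM in wox5-1 cells, against 0, 1.22 and 0 FPKM in wild-type cells (log2 change 3.06, SE 0.60). PEP7, the precursor of a peptide elicitor of defence, had 22.9, 46.1 and 22.9 FPKM in wox5-1 cells, against 4.18, 5.48 and 7.20 FPKM in wild-type cells (2.203, SE 0.46). CLE19, a peptide of the CLAVATA3 family, had 6.26, 18.24 and 15.4 FPKM in wox5-1 cells, against 3.13, 0 and 0.550 FPKM in wild-type cells (2.83, SE 0.69). For SCRL15 and CLE19 the lowest wox5-1 value came from library 1, and it still exceeded each wild-type value.

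Transcription factors higher in wox5-1 were WRKY70, MYB62 and MYB4. WRKY70, a regulator of salicylic acid responses, had 37.8, 66.8 and 27.1 FPKM in wox5-1 cells, against 6.10, 9.71 and 12.1 FPKM in wild-type cells (log2 change 2.07, SE 0.47). MYB62, known from the phosphate starvation response, had 8.14, 14.7 and 11.3 FPKM in wox5-1 cells, against 2.75, 0 and 2.04 FPKM in wild-type cells (2.43, SE 0.63). MYB4, a repressor of phenylpropanoid synthesis, had 32.5, 111.9 and 20.5 FPKM in wox5-1 cells, against 6.79, 10.6 and 2.46 FPKM in wild-type cells (2.67, SE 0.71). For WRKY70, MYB62 and MYB4 wox5-1 library 2 was the highest of the 6.

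Enzymes, transporters and wall proteins made up most of the rest. NSP3, a nitrile-specifier protein of glucosinolate breakdown, had 42.5, 60.5 and 191.8 FPKM in wox5-1 cells, against 3.92, 29.2 and 4.95 FPKM in wild-type cells (log2 change 3.06, SE 0.81). PRXR1, a class III peroxidase, had 170.8, 117.6 and 173.1 FPKM in wox5-1 cells, against 68.0, 63.2 and 38.6 FPKM in wild-type cells (1.45, SE 0.38). PRXR1 was the most abundant of the 12 by mean FPKM in wox5-1, at 153.8 FPKM. AGP17, an arabinogalactan protein, ANT1, an amino acid transporter, and DTX35, a multidrug and toxin efflux carrier, had log2 changes of 2.48 (SE 0.67), 1.58 (SE 0.43) and 2.43 (SE 0.67). UNE14 had 7.24, 29.9 and 12.4 FPKM in wox5-1 cells, against 0.644, 0 and 1.63 FPKM in wild-type cells (3.21, SE 0.66). UNE14, ANT1 and DTX35 overlap another annotated gene, and with strand use unknown their fragments cannot be told apart from that gene's.

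Of the 12 genes lower in wox5-1, NRPB12 had the smallest unadjusted p. NRPB12, a small subunit of the nuclear RNA polymerases, had 32.3, 12.3 and 20.0 FPKM in wox5-1 cells, against 136.6, 93.6 and 59.9 FPKM in wild-type cells (log2 change -2.13, SE 0.48). PLT3 (listed as AIL6), an AP2-type factor of the PLETHORA family that maintains the root stem cells, had 25.8, 9.76 and 9.54 FPKM in wox5-1 cells, against 44.7, 55.2 and 68.4 FPKM in wild-type cells (-1.96, SE 0.47). Its wild-type value was highest in library 4, the library in which WOX5, PAN and SCR were lowest. NRPB12, PLT3 and TIM23-1 overlap another annotated gene.

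Other regulators in this group were bHLH093, PPD1, AGF2 and NAC044. PPD1 (PEAPOD1), a TIFY protein that limits cell proliferation in leaves, had 2.96, 3.26 and 0.561 FPKM in wox5-1 cells, against 11.7, 12.4 and 10.1 FPKM in wild-type cells (log2 change -2.06, SE 0.55). NAC044, a NAC factor of the DNA damage response, had 4.73, 0 and 0.0327 FPKM in wox5-1 cells, against 18.9, 13.9 and 6.08 FPKM in wild-type cells (-2.82, SE 0.80). The wild-type values of PPD1 were close together, and those of NAC044 differed by more than the gap between the genotypes. bHLH093, a basic helix-loop-helix factor, had a log2 change of -1.46 (SE 0.37), and AGF2, an AT-hook protein, one of -1.84 (SE 0.50).

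Housekeeping and stress proteins completed the list. ADS2, an acyl-lipid desaturase, had 55.9, 61.3 and 57.4 FPKM in wox5-1 cells, against 110.7, 174.3 and 145.4 FPKM in wild-type cells (log2 change -1.26, SE 0.34). FSD2, an iron superoxide dismutase of plastids, had 3.36, 0.199 and 2.004 FPKM in wox5-1 cells, against 20.4, 14.4 and 6.62 FPKM in wild-type cells (-2.44, SE 0.67). GRP2B, a glycine-rich cold-shock protein, DWA1, a WD40 protein of abscisic acid signalling, ENODL14, an early nodulin-like protein, and TIM23-1, a channel protein of mitochondrial import, had log2 changes between -1.76 and -1.34. ADS2 had an SD of 2.77 FPKM over the 3 wox5-1 libraries and 31.8 FPKM over the 3 wild-type libraries.

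**Figure D3:**
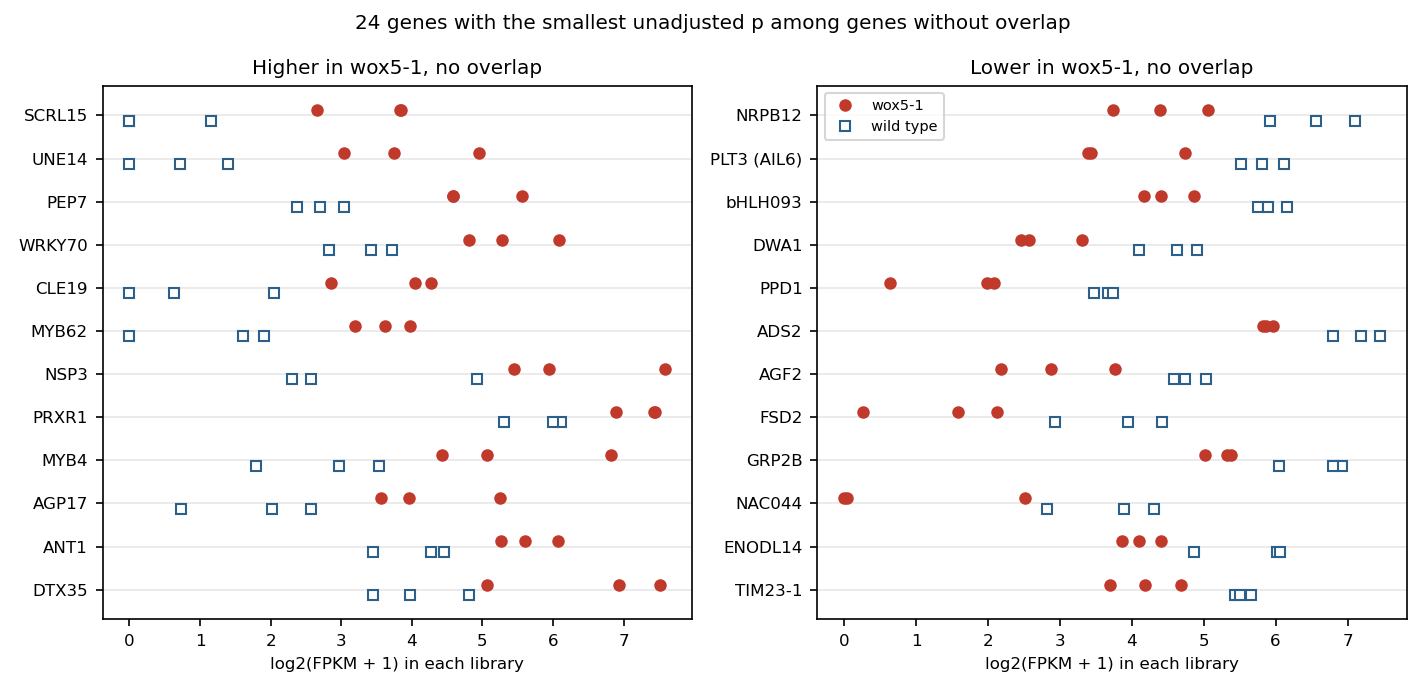
log2(FPKM + 1) in each library for the 12 genes per direction with the smallest unadjusted p among genes without overlap (wox5-1, filled circles, drawn above the open squares of the wild type; coinciding points hide each other). The genes were selected for the gap seen here, and each had an adjusted p of 0.771.

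In each of the 27 gene lists 0 members passed limma's test, and the counts below describe the tested members, leaving out those under the filter. A gene at 1 FPKM or more in only the 3 libraries of 1 genotype passes the filter and lacks overlap by construction. LBD29, IPS1, LOX2 and CLE40, described below, are such genes and count in the shares without overlap of their lists. Among the genes of the QC and stem cell niche, 12 of 17 passed the filter and 8 had a log2 change below 0, with a list median of -0.22 beside 0.07 for all genes. The groups did not overlap in 2 of the 12 (16.67%, against 3.96% of all genes lower without overlap), both of them PLETHORA genes. PLT1 had 26.4, 17.5 and 13.3 FPKM in wox5-1 cells, against 53.3, 42.4 and 43.8 FPKM in wild-type cells (log2 change -1.29, SE 0.39, adjusted p = 0.771). As with PLT3, each wild-type library lay above each wox5-1 library. RGF3, a root meristem growth factor peptide gene, had 54.5, 22.8 and 30.5 FPKM in wox5-1 cells, against 90.0, 41.9 and 426 FPKM in wild-type cells. The groups overlapped, and wild-type library 4, with the high root cap sum, set the RGF3 mean. The list median turned above 0 without wild-type library 1, wild-type library 3 or wox5-1 library 4, reaching 0.21 at most.

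AN3 acts together with GROWTH-REGULATING FACTORs (GRFs), transcription factors that promote cell proliferation. Of 12 GRF and GIF genes 10 were tested, 7 were below 0 and 3 above, and the median of -0.37 turned to 0.06 without wild-type library 3. GRF4 had 10.7, 0.425 and 2.21 FPKM in wox5-1 cells, against 31.7, 37.0 and 11.9 FPKM in wild-type cells (log2 change -2.74, SE 0.81). GRF2 had 1.17, 0.388 and 2.48 FPKM in wox5-1 cells, against 6.59, 10.02 and 6.798 FPKM in wild-type cells (-1.99, SE 0.54). Neither of these overlapped between genotypes (20% of the 10, against 3.96% of all genes lower without overlap), though wox5-1 library 1 came close to wild-type library 4 for GRF4. GRF5 went the other way, with 0.932, 9.58 and 4.09 FPKM in wox5-1 cells, against 1.07, 0.248 and 0.309 FPKM in wild-type cells (1.65, SE 0.69), with wox5-1 library 1 inside the wild-type range. All 3 had a limma adjusted p of 0.771.

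Genes of DNA replication were lower on average in wox5-1. Of 21 genes of S phase and replication, 20 had a log2 change below 0, against 46.2% of all genes, and the median was -0.86. All 16 replication-dependent histone genes were below 0, with a median of -0.73. The groups overlapped in 20 of the 21 replication genes and in the 16 histone genes. The exception was CYCA3;1, an A-type cyclin of S phase, with 4.04, 2.41 and 2.61 FPKM in wox5-1 cells, against 6.46, 11.8 and 4.96 FPKM in wild-type cells (log2 change -1.07, SE 0.52, adjusted p = 0.771). The S phase list summed to 403.5, 93.47 and 260.2 FPKM in wox5-1 and to 628.2, 630.9 and 187.7 FPKM in the wild type. Wild-type libraries 1 and 3 thus lay above each wox5-1 library, while wild-type library 4 lay below wox5-1 libraries 1 and 4. Without wox5-1 library 1 and wild-type library 4 together the medians were -1.72 for S phase and -1.43 for the histones. The histone list summed to 2979, 885 and 1294 FPKM in wox5-1 and to 3767, 2278 and 2348 FPKM in the wild type, so wox5-1 library 1 lay within the wild-type range. Histone genes are near-identical in sequence, so fragments may have been split between them.

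Among 29 genes of G2 and mitosis, 25 were below 0 and the median was -0.46, with 0 called and 2 without overlap (6.897%, against 3.96% of all genes lower without overlap). The median lay between -0.91, without wild-type library 4, and -0.16, without wild-type library 3. Without wild-type library 4 all 29 were below 0 and 19 had no overlap, beside 4060 of 18995 genes in that setting. CYCB2;1, a B-type cyclin, had 1.85, 3.23 and 0.641 FPKM in wox5-1 cells, against 9.53, 11.6 and 3.97 FPKM in wild-type cells (log2 change -1.69, SE 0.60). CYCB2;4 had 6.54, 6.97 and 5.82 FPKM in wox5-1 cells, against 13.5, 22.9 and 9.47 FPKM in wild-type cells (-1.05, SE 0.47). For both cyclins the lowest wild-type value was that of library 4. The G1-acting D-type cyclins were mixed, with 6 of 9 tested genes below 0 (median -0.46). CYCD3;3 had 6.62, 7.54 and 7.68 FPKM in wox5-1 cells, against 17.62, 17.5 and 10.4 FPKM in wild-type cells (-0.93, SE 0.43). Its paralog CYCD3;1 had 11.9, 12.4 and 7.96 FPKM in wox5-1 cells, against 4.45, 7.38 and 6.64 FPKM in wild-type cells (0.72, SE 0.46). The genotypes did not overlap in either paralog, with opposite directions (11.11% of the list in each, against 7.09% of all genes higher and 3.96% lower).

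CDK inhibitors, which slow or stop the cell cycle, had 6 of 9 members above 0 and a median of 0.16. The median turned to -0.003 after quantile normalization, to -0.04 with a pseudocount of 5 and to -0.21 without wox5-1 library 1 and wild-type library 4. In 2 of the 9 the groups did not overlap (22.22%, against 7.09% of all genes higher without overlap), and both belong to the SIAMESE type that is linked to endoreduplication. SIM had 80.7, 143.7 and 65.8 FPKM in wox5-1 cells, against 32.5, 37.9 and 59.2 FPKM in wild-type cells (log2 change 1.11, SE 0.43). LGO had 22.01, 37.5 and 21.3 FPKM in wox5-1 cells, against 11.1, 13.7 and 9.73 FPKM in wild-type cells (1.124, SE 0.41). For SIM the gap between wox5-1 library 4 and wild-type library 4 was small, and for LGO each wox5-1 value exceeded each wild-type value by more than the wild-type range.

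The labelled cell type was checked against markers of the root tissues. All 9 genes of the young ground tissue passed the filter. As a list they summed to 145, 96.21 and 79.14 FPKM in wox5-1 and to 207.5, 370 and 64.98 FPKM in the wild type. Single members could still lie under 1 FPKM, such as AT5G41920 in wild-type libraries 1 and 4 (0.297 and 0.646 FPKM). CYCD6;1 did so in wox5-1 library 4. SCR also reached 13.9 to 57.25 FPKM among the QC-marker libraries of the wild type, so its presence does not single out the labelled cell type. Of the 9, 7 were below 0 (median -0.60, turning to 0.04 without wild-type library 3), with overlapping groups. MGP, a zinc finger target of SHR and SCR, had 21.2, 11.0 and 10.8 FPKM in wox5-1 cells, against 74.2, 78.1 and 8.13 FPKM in wild-type cells (log2 change -1.37, SE 0.82). SCL3, a GRAS factor of the endodermis, had 15.7, 8.57 and 4.17 FPKM in wox5-1 cells, against 17.5, 46.0 and 10.8 FPKM in wild-type cells (-1.21, SE 0.65). In MGP, as in SCR, wild-type library 4 was below each wox5-1 library. In these sorted bulk samples fewer cells of a type and less RNA per cell cannot be told apart.

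Later stages of the endodermis were uneven between wild-type libraries. CASP1, a membrane protein of the Casparian strip, had 19.2, 4.05 and 6.46 FPKM in wox5-1 cells, against 137.8, 11.5 and 4.70 FPKM in wild-type cells. Of 12 genes of the differentiating endodermis 11 were tested and 7 were below 0 (median -0.73). That median turned to 0.14 at most when one library was left out, with the sign changing without wild-type library 1 or wox5-1 library 4. The mean over the 11 genes was -0.43. Only 3 of 9 suberin genes passed the filter (median -0.24), and the defining enzymes CYP86A1 and CYP86B1 were at 0 in each of the 6 libraries. The cortex list held 2 genes, of which AT1G09750 had a log2 change of 1.59 (SE 0.78) and AT1G62500 one of -0.19 (SE 0.96).

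Of 18 genes of the epidermis and root hairs, 16 had a log2 change above 0, the median was 1.33, and the groups did not overlap in 3 (16.67%, against 7.09% of all genes higher without overlap). RHD6, the bHLH factor that starts root hair formation, had 24.8, 24.8 and 21.1 FPKM in wox5-1 cells, against 10.4, 1.099 and 5.80 FPKM in wild-type cells (log2 change 2.17, SE 0.64). RSL1, its close relative, had 21.6, 5.36 and 8.48 FPKM in wox5-1 cells, against 2.45, 0.151 and 2.41 FPKM in wild-type cells (2.22, SE 0.69). The wox5-1 values of RHD6 were close together, and those of RSL1 were highest in library 1. EXPA7, an expansin of root hair cells, had 199, 240.5 and 194.7 FPKM in wox5-1 cells, against 12.3, 178.6 and 62.3 FPKM in wild-type cells (1.99, SE 0.83). RSL4, which drives hair growth downstream of RHD6, had 84.7, 76.4 and 101.3 FPKM in wox5-1 cells, against 7.50, 87.7 and 21.1 FPKM in wild-type cells (1.78, SE 0.76). Wild-type library 3 reached the wox5-1 level for RSL4 and nearly so for EXPA7. The list summed to 3102, 2761 and 4060 FPKM in wox5-1 and to 314.2, 4611 and 635.2 FPKM in the wild type, so that the highest sum of the 6 was in wild-type library 3. All 4 genes had a limma adjusted p of 0.771.

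Of 23 genes of the stele and pericycle, 15 were tested and 12 were below 0 (median -0.58), 3 of them without overlap (20%, against 3.96% of all genes). TMO5 (listed as BHLH32), a bHLH factor that promotes vascular divisions, had 1.38, 0.0438 and 0 FPKM in wox5-1 cells, against 3.24, 3.77 and 3.89 FPKM in wild-type cells (log2 change -1.77, SE 0.53). LOG4, a cytokinin-activating enzyme that acts downstream of TMO5, had 6.35, 1.35 and 1.69 FPKM in wox5-1 cells, against 18.6, 16.6 and 6.16 FPKM in wild-type cells (-1.91, SE 0.65). TMO5 did not overlap between genotypes, while wox5-1 library 1 reached wild-type library 4 for LOG4. PHO1, a phosphate exporter of the pericycle, had 0.118, 0.782 and 1.184 FPKM in wox5-1 cells, against 1.49, 1.92 and 4.07 FPKM in wild-type cells (-1.03, SE 0.54). Together with SHR, TMO5 and PHO1 were the 3 stele genes without overlap.

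The columella and root cap genes were uneven between libraries of the same genotype. Of 16 genes, 9 were above 0 and 7 below, with a median of 0.13 and a mean of -0.13. Without wild-type library 4 all 13 tested genes were above 0 and the median was 1.69, while without wild-type library 3 it was -0.99. The median also turned below 0 without wild-type library 1 or wox5-1 library 1, and with a pseudocount of 5. BFN1, a nuclease of dying cap cells, had 0.643, 0.867 and 8.77 FPKM in wox5-1 cells, against 5.42, 0.0296 and 45.5 FPKM in wild-type cells. CLE40, a peptide gene of the columella and stele, had 0, 0 and 0.691 FPKM in wox5-1 cells, against 5.05, 3.08 and 1.88 FPKM in wild-type cells (log2 change -1.80, SE 0.53). BFN1 was thus highest in wild-type library 4, and CLE40, the 1 member without overlap (6.25%, against 3.96% of all genes lower without overlap), was lowest there among the wild-type libraries.

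Photosynthesis genes were by far highest in wox5-1 library 1. All 21 tested genes of green tissue, of 27 listed, were above 0 with a median of 2.90, which was 0.78 without wox5-1 library 1 and 0.44 without wild-type library 4 as well. CA1, a carbonic anhydrase, had 242.7, 7.71 and 8.54 FPKM in wox5-1 cells, against 1.25, 0.579 and 1.201 FPKM in wild-type cells. LHCB3, a light-harvesting protein with close paralogs, had 1078, 13.6 and 9.74 FPKM in wox5-1 cells, against 5.24, 1.31 and 5.88 FPKM in wild-type cells. Both were thus also above the wild type in wox5-1 libraries 2 and 4, at a much lower level, and 6 of the 21 had no overlap (28.57%, against 7.09% of all genes). The list made up 2.68% of the summed FPKM in wox5-1 library 1 and at most 0.0357% in each other library. Chloroplast-encoded genes took 2.56 ± 0.82% of summed FPKM in wox5-1 and 1.32 ± 0.59% in the wild type (SD, n = 3 each, 2-sided exact permutation p = 0.2, where 0.1 is the smallest possible). Mitochondrion-encoded genes took 1.27 ± 0.81% in wox5-1 and 1.25 ± 1.35% in the wild type (SD, n = 3 each, exact permutation p = 0.9). What part the green-tissue and root cap signals had in the other changes was not tested.

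**Figure D4:**
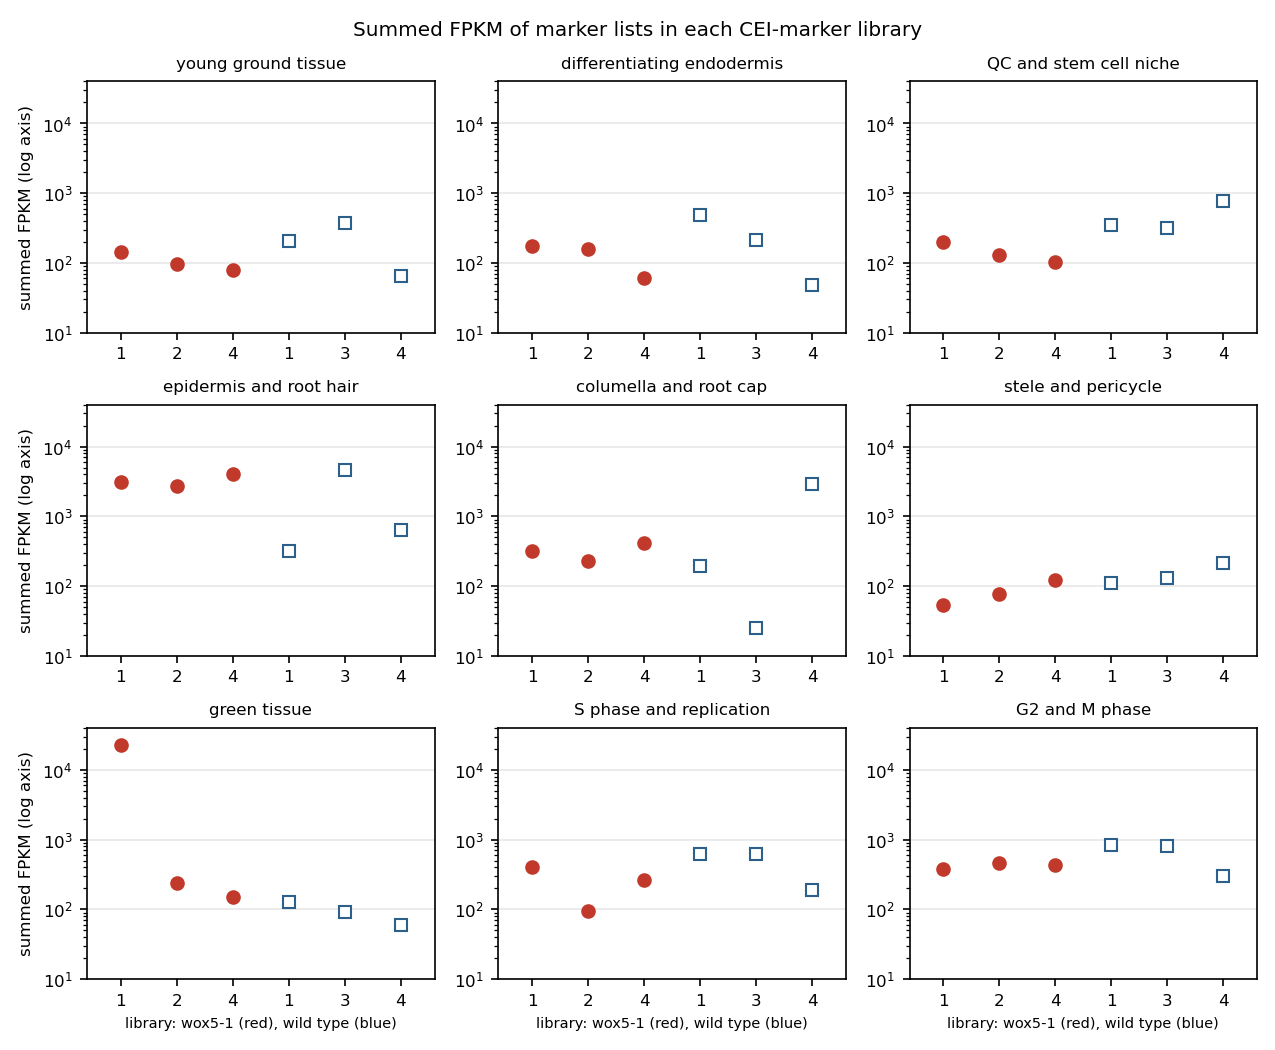
Summed FPKM of 9 marker lists in each CEI-marker library, on a log axis (wox5-1 libraries 1, 2 and 4, red circles; wild-type libraries 1, 3 and 4, blue squares). Green tissue genes peak in wox5-1 library 1 at 22700 FPKM, root cap genes in wild-type library 4 at 2876 FPKM, and the S phase sum of wild-type library 4, 187.7 FPKM, lies within the wox5-1 range.

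Among auxin response genes, 14 of 17 tested had a log2 change above 0, with a median of 0.67. The median was 0.27 without wild-type library 3 and 1.35 without wild-type library 4. The list summed to 421, 576 and 532.1 FPKM in wox5-1 and to 363.5, 120.1 and 852 FPKM in the wild type, so the highest sum was in wild-type library 4. The groups did not overlap in 4 that were higher (23.53%, against 7.09% of all genes) and in 1 that was lower (5.882%, against 3.96%). IAA5, an early auxin-induced repressor, had 8.80, 28.9 and 52.4 FPKM in wox5-1 cells, against 6.52, 4.95 and 3.81 FPKM in wild-type cells (log2 change 2.06, SE 0.65). SHY2 (IAA3), a repressor that limits meristem size, had 2.996, 12.9 and 4.37 FPKM in wox5-1 cells, against 0.738, 0.301 and 2.05 FPKM in wild-type cells (1.81, SE 0.64). ARF19, an auxin response factor, and LBD29 were the others. LBD29, a target of auxin response factors in lateral root formation, had 1.73, 11.2 and 1.04 FPKM in wox5-1 cells and was at 0 in the 3 wild-type libraries. LBD29 passed the filter only through wox5-1, so its lack of overlap was fixed by the filter. The lower gene was MP (ARF5), the auxin response factor of embryonic root and vascular patterning, with 13.2, 3.72 and 9.19 FPKM in wox5-1 cells, against 14.7, 21.8 and 48.1 FPKM in wild-type cells (-1.56, SE 0.60). For IAA5 and MP the gap between wox5-1 library 1 and wild-type library 1 was narrow.

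Auxin synthesis and transport genes went in both directions, with 13 of 20 tested genes below 0 (median -0.40). The sign of that median turned without wild-type library 4, at 0.25. PIN4, an efflux carrier of the distal root meristem, had 40.3, 49.8 and 27.1 FPKM in wox5-1 cells, against 58.6, 68.2 and 84.1 FPKM in wild-type cells (log2 change -0.86, SE 0.38). YUC3, an enzyme of auxin synthesis, had 51.3, 49.1 and 40.1 FPKM in wox5-1 cells, against 77.7, 60.6 and 162.2 FPKM in wild-type cells (-0.96, SE 0.44). PIN4 and YUC3 did not overlap between genotypes and had a limma adjusted p of 0.771. They were the 2 lower genes without overlap among the 20 (10%, against 3.96% of all genes), and WAG2, described last, was the 1 higher gene (5%, against 7.09%).

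Type-A response regulators, the early targets and inhibitors of cytokinin signalling, were above 0 in 7 of 7 tested genes, with a median of 0.64, and 3 further members were below the filter. ARR9 had 23.4, 30.0 and 21.5 FPKM in wox5-1 cells, against 7.57, 14.1 and 7.34 FPKM in wild-type cells (log2 change 1.33, SE 0.43, adjusted p = 0.771). ARR9 was the 1 member without overlap (14.29%, against 7.09% of all genes). The list median stayed between 0.48 and 1.08 when each library was left out in turn. The direction was not particular to this list. Genes with RR symbols, of which RR3 and RR5 belong to the list, were above 0 in 11 of 11 (median 0.74).

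Stress and nutrient lists were checked because sorting follows enzymatic digestion of the wall. Wounding and jasmonate genes were above 0 in 17 of 19 (median 0.40), with 2 lacking overlap (10.53%, against 7.09% of all genes). LOX2, a lipoxygenase of jasmonate synthesis, had 5.53, 1.56 and 2.78 FPKM in wox5-1 cells, against 0.747, 0.542 and 0 FPKM in wild-type cells (log2 change 1.52, SE 0.55). LOX4 was the other, with a log2 change of 1.00 (SE 0.47). Heat shock genes had 8 of 13 below 0 (median -0.26) and hypoxia genes 8 of 12 tested below 0 (median -0.26), with overlapping groups throughout. The heat shock median turned above 0 without wild-type library 1 or wox5-1 library 4, reaching 0.80 at most, and the hypoxia median turned to 0.20 without wild-type library 4.

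Among nutrient genes, those of phosphate starvation had 6 of 7 tested members above 0 (median 0.34). The median was 0.02 without wox5-1 library 2 and 0.78 without wild-type library 4. IPS1, a non-coding RNA induced by phosphate starvation, had 2.89, 6.35 and 1.56 FPKM in wox5-1 cells, against 0.487, 0.596 and 0 FPKM in wild-type cells (log2 change 1.65, SE 0.56). PHT1;4, a phosphate transporter, had 19.6, 23.9 and 45.4 FPKM in wox5-1 cells, against 13.4, 7.19 and 17.8 FPKM in wild-type cells (1.14, SE 0.50). These were the 2 members without overlap (28.57%, against 7.09% of all genes). LBD39, a repressor of nitrate-responsive genes, had 17.0, 20.18 and 19.6 FPKM in wox5-1 cells, against 47.3, 36.9 and 40.5 FPKM in wild-type cells (-1.09, SE 0.35). LBD38, its close relative, had 73.2, 167.1 and 97.02 FPKM in wox5-1 cells, against 60.5, 64.8 and 64.7 FPKM in wild-type cells (0.73, SE 0.40). These were the members of the nitrate assimilation list without overlap, 1 in each direction (11.11% each, against 7.09% of all genes higher and 3.96% lower). Of its 9 tested members 7 were above 0 (median 0.39). Iron acquisition genes had 10 of 12 tested members above 0 (median 0.37, turning to -0.01 without wox5-1 library 2). The 1 iron gene without overlap was lower in wox5-1 (8.333%, against 3.96% of all genes). It was NAS2, a nicotianamine synthase, with 4.83, 4.91 and 5.68 FPKM in wox5-1 cells, against 8.76, 12.7 and 9.83 FPKM in wild-type cells (-0.88, SE 0.44).

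Flavonoid synthesis genes were above 0 in 6 of 6 tested genes, with a median of 0.85 and no member free of overlap. TT7, flavonoid 3'-hydroxylase, had 8.70, 105.2 and 46.2 FPKM in wox5-1 cells, against 2.74, 20.9 and 10.4 FPKM in wild-type cells (log2 change 1.90, SE 0.94). F3H, an enzyme of the same pathway, had 99.05, 445.3 and 353.5 FPKM in wox5-1 cells, against 85.9, 264.5 and 104.8 FPKM in wild-type cells (0.90, SE 0.66). In both, wox5-1 libraries 2 and 4 were the highest of the 6 and wox5-1 library 1 lay among the wild-type values. Genes that every cell uses were not level either. ACT2 had 1028, 1042 and 1712 FPKM in wox5-1 cells, against 383.1, 972.3 and 902.1 FPKM in wild-type cells (0.82, SE 0.53). ACT7 went the other way, with 376.8, 283.5 and 314.5 FPKM in wox5-1 cells, against 468.6, 439.8 and 445.2 FPKM in wild-type cells (-0.48, SE 0.36). The 6 genes of this list had a median of 0.27. With 1 library left out the medians of other lists also moved without changing sign. They lay between -1.50 and -0.43 for S phase, -1.25 and -0.43 for histones, -0.98 and -0.28 for the stele, 0.88 and 1.51 for the epidermis, 0.14 and 0.69 for wounding and jasmonate, and 0.36 and 1.64 for flavonoid synthesis.

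**Figure D5:**
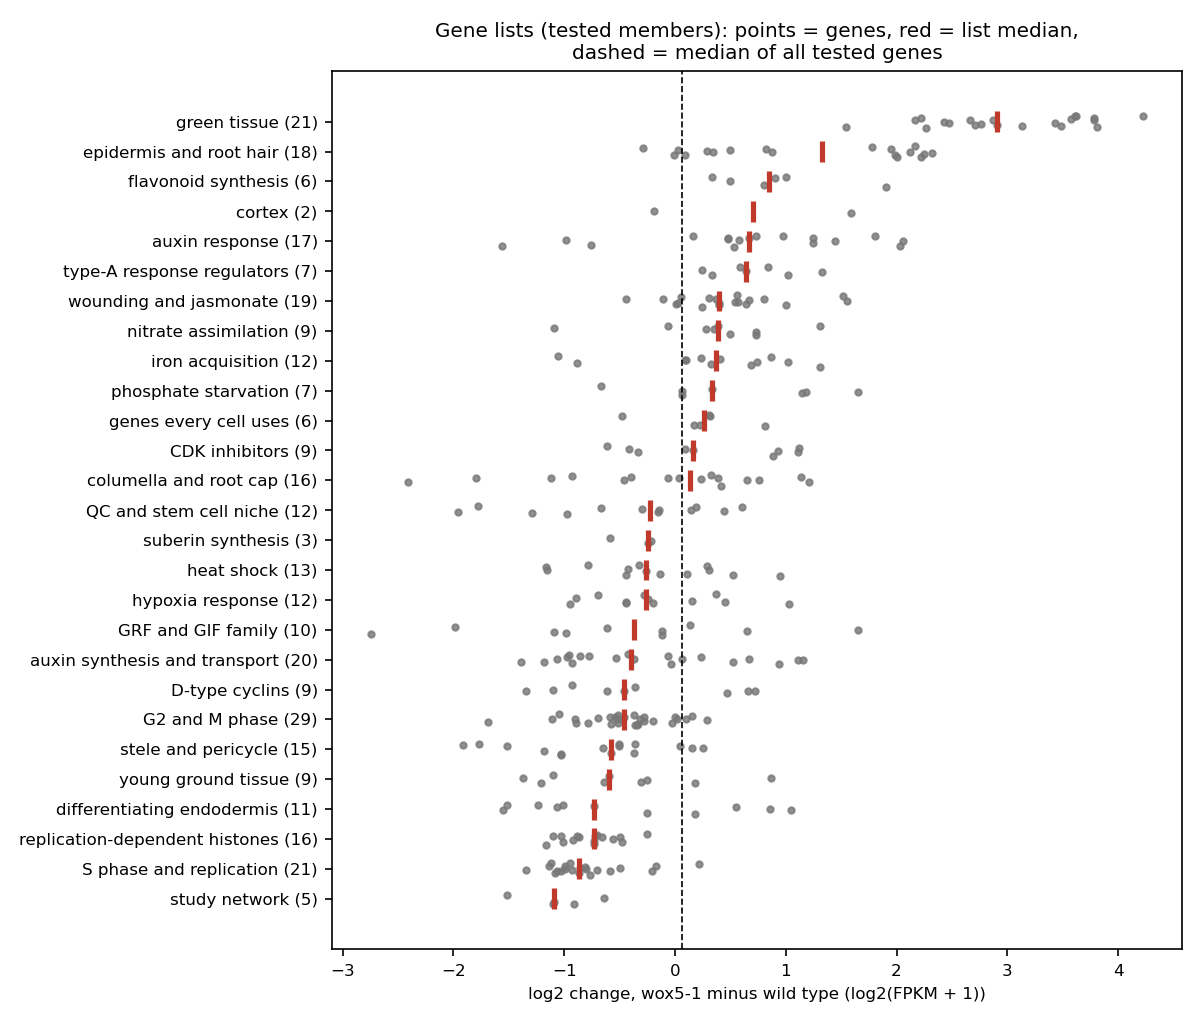
log2 change (wox5-1 minus wild type, on log2(FPKM + 1)) of each tested member of the 27 gene lists, ordered by the list median (red bar), with the number tested in brackets and the median of all tested genes, 0.07, as a dashed line. S phase, histone and network genes lie to the left, with medians of -0.86, -0.73 and -1.09, and epidermis and green tissue genes to the right, with medians of 1.33 and 2.90.

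The effect of wox5-1 in CEI-marker cells was set against that in QC-marker cells in a fit of all 13 libraries, with limma's test of the difference. It called 5 of 19802 genes (0.0252%), 3 with a higher (0.0151%) and 2 with a lower change (0.0101%) in CEI-marker cells. The one with a known role in the root was WAG2, a protein kinase that directs auxin carriers in the membrane. Among CEI-marker libraries WAG2 had 63.9, 83.4 and 65.0 FPKM in wox5-1, against 26.3, 25.5 and 48.4 FPKM in wild-type cells (log2 change 1.11, SE 0.39, adjusted p = 0.771). In QC-marker cells it had 11.8, 12.9, 14.5 and 13.7 FPKM in wox5-1 cells, against 76.6, 74.8 and 44.7 FPKM in wild-type cells (-2.19, SE 0.33, adjusted p = 0.00487). The groups lay apart in both populations and in opposite directions, and the difference of the 2 changes was 3.302 (SE 0.48, adjusted p = 0.0316). Without wild-type CEI-marker library 1 or 3, or any 1 of the 7 wox5-1 libraries, WAG2 no longer passed the test (adjusted p 0.0588 to 0.158, difference 3.15 to 3.37).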

How the data were processed

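RNA of sorted root cells was made into libraries with a low-input SMARTer kit without named molecular identifiers, per the labels' protocols, so fragments of a gene are not independent molecules. The authors deposited FPKM values for 33560 genes, and the submitters' processing notes name Cufflinks without a version. Aligner, genome build, annotation and use of strand were not given in the sources used here. Neither coordinates nor sequences are therefore printed, and the planned search of promoters was not run. Symbols and overlaps came from the RefSeq table of TAIR10.1, where 32826 identifiers matched and 10651 carried a symbol.

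Column names gave the group. Their numbers do not match those of the titles and serve as names only.

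Genes were tested in limma 3.58.1 (R 4.3.3), from log2(FPKM + 1) of the 6 CEI-marker libraries, using a mean-variance trend, 2-sided, with Benjamini-Hochberg adjustment over 19802 genes and calls at an adjusted p under 0.05. It was tested on simulated data. Changes on this scale understate those of low genes. Residual degrees of freedom were 4, to which the shared spread added 4.29. WOX5 did not pass the filter and came from the fit without it, a departure from the plan. The p-values measure the spread between these libraries. Depth was estimated from the step between low FPKM values, roughly, and entered no test.

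The members and the 27 lists (377 different loci, from textbook knowledge) were chosen with earlier results of these data known. No list was tested as a set. Named genes are the study network, the 12 per direction described in the text, and up to 4 members per list with the smallest unadjusted p, of which some are left out. Genes outside this rule are CYP86A1, CYP86B1 and ARF19, those called with 1 library left out, and those of the families in the closing section, chosen after their values were seen. Alternatives were a filter at 5 FPKM or none, pseudocounts of 0.1 and 5, median-of-ratios and quantile scaling, all 13 libraries in 1 fit, array weights, robust and trend-free fits, a replicate block, and each library left out. Those for the difference from QC-marker cells and for families were added after seeing the data.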

Additional observations from a re-analysis of the deposited data

Results flagged for a closer look

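In 5 genes the change with wox5-1 differed between CEI-marker and QC-marker cells by limma's test of the difference over 19802 genes. At an unadjusted p under 0.05 there were 2113 such genes (10.7%).

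AT2G41233 was at 28.4, 21.6 and 14.4 FPKM in wox5-1 CEI-marker libraries and was listed at 0 in the 3 wild-type CEI-marker libraries and in each of the 7 QC-marker libraries (adjusted p of the difference 0.00662). ATMG00360, a mitochondrion-encoded locus, was listed at 0 in the wox5-1 CEI-marker libraries, against 39.6, 11.97 and 12.2 FPKM in wild-type ones, and it was at 0 in each QC-marker library (adjusted p 0.0255). For both genes the values at 0 in QC-marker cells have no spread of their own, which enters the shared estimate. Both also passed the filter only through the CEI-marker genotype in which they were detected. The filter thus selected them by the same values that the test used. For the change within CEI-marker cells the adjusted p was 0.159 for AT2G41233 and 0.405 for ATMG00360 in the fit of the 6 CEI-marker libraries alone, and 0.000126 and 0.00122 in the fit of all 13, where both were among the 7 genes called.

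AT3G44440 had 5.59, 4.22 and 4.80 FPKM in wox5-1 CEI-marker libraries, against 0, 0 and 1.76 FPKM in wild-type ones. In QC-marker cells it was listed at 0 in the 4 wox5-1 libraries, against 3.79, 4.33 and 3.25 FPKM in wild-type ones (adjusted p of the difference 0.0255). The 2 populations thus lay in opposite directions, without overlap in either, at no more than 5.59 FPKM in any library. The values at 0 in wox5-1 QC-marker cells have no spread of their own here either.

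AT3G17100 had 39.3, 49.8 and 52.8 FPKM in wox5-1 CEI-marker libraries, against 24.8, 19.6 and 65.3 FPKM in wild-type ones, with overlap. In QC-marker cells it had 99.1, 87.7, 36.0 and 102 FPKM in wox5-1 cells, against 0.912, 0 and 0.952 FPKM in wild-type cells (adjusted p of the difference 0.0255). The difference in WAG2 (adjusted p 0.0316), given above, was the fifth.

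The calls rested on single libraries. Without wox5-1 QC-marker library 1 or 4 none of the 5 genes passed the test. Those were the only single libraries that ended the call of AT2G41233 (adjusted p 0.0538 without library 1 and 0.0514 without library 4). ATMG00360, AT3G44440, AT3G17100 and WAG2 also lost it without wox5-1 QC-marker library 2 or any of the 3 wox5-1 CEI-marker libraries. Further losses came without wox5-1 QC-marker library 3 (ATMG00360, AT3G44440, WAG2), wild-type QC-marker library 3 (ATMG00360), wild-type CEI-marker library 1 (AT3G44440, AT3G17100, WAG2) and wild-type CEI-marker library 3 (AT3G44440, WAG2). Over these refits the adjusted p of the 5 genes was at most 0.158.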

How the results depend on the processing

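The count of 0 called genes was 7 with all 13 libraries in 1 fit, ranged from 0 to 3 with each library left out, and stayed 0 in the other settings run. The 1107 genes at an unadjusted p under 0.05 became 605 with the filter at 5 FPKM, 5077 with array weights (weights 0.31 for wild-type library 4 to 3.19 for wox5-1 library 4), 4635 without wox5-1 library 1 and wild-type library 4, and 418 to 3330 with 1 library left out. With array weights 2373 were higher and 2704 lower in wox5-1. Genes without overlap, 2189 in the main setting, numbered 1365 with the filter at 5 FPKM, 10540 without those 2 libraries and 2858 to 7476 with 1 left out, where fewer libraries make a gap likelier by construction. WOX5 was between -4.32 and -1.37 on the log2 scale and was called in none of these settings.

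Of 126 named values, those that changed sign did so under few settings, and the cause was not tested. AT1G62500 was at 0.56 and RWP1 at 0.17 with a pseudocount of 0.1, and BFN1 at 0.55 with array weights. PIN7 was at 0.33 and HSP18.2 at -0.082 without wox5-1 library 1 and wild-type library 4. With the column numbers as a replicate block SCR was at 0.14, AT1G62500 at 0.49, KCS20 at 0.14, DREB2A at -0.18 and UBQ10 at -0.14. With 1 library left out AT1G62500 lay between -1.37 and 0.51, CASP1 -2.19 and 0.11, RWP1 -1.30 and 0.50, HSP23.6-MITO -2.87 and 0.080, SCR -1.47 and 0.17, KCS20 -0.49 and 0.25, DREB2A -0.09077 and 0.71, PIN7 -1.79 and 0.21, and HSP18.2 -0.07347 and 1.51. The 2 shared column numbers do not establish pairs (correlations of deviations 0.29 and 0.27, other combinations -0.29 to 0.09), and the block moved the count at an unadjusted p under 0.05 to 1435 with 0 genes called. The 5 genes that differed between populations became 16 after quantile normalization and 0 to 50 with 1 library left out, the highest without wild-type QC-marker library 1.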

Other observations

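Gene families were formed from the symbols of tested genes (122 families of at least 10 genes), after the values had been seen, so the counts are a description without a test. All 11 TIM genes, for protein import into mitochondria, had a log2 change below 0 (median -1.05, against 0.07 for all genes), and so did all 15 NRPB genes, for subunits of RNA polymerase II (median -0.79). TIM9 had 226.5, 55.2 and 94.1 FPKM in wox5-1 cells, against 464.5, 288.6 and 78.3 FPKM in wild-type cells (log2 change -1.05, SE 0.74, limma adjusted p = 0.771). NRPB11 had 87.0, 81.2 and 77.7 FPKM in wox5-1 cells, against 137.3, 113.4 and 109 FPKM in wild-type cells (-0.54, SE 0.33, adjusted p = 0.771). TIM9 overlapped between genotypes, with wild-type library 4 below wox5-1 libraries 1 and 4, while NRPB11 did not. Lower without overlap were 1 of the 11 TIM genes and 2 of the 15 NRPB genes, beside 3.96% of all genes. NRPB11 overlaps another annotated gene in position, so its fragments cannot be told apart from that gene's. With each library left out the medians stayed between -1.56 and -0.56 for TIM and between -1.38 and -0.44 for NRPB. Genes named EIF, for translation initiation, were below 0 in 17 of 19 (median -0.72), and genes named EMB, required for embryo development, in 112 of 151 (median -0.37). No overlap was seen in 0 of the 19 EIF genes, and in 2 higher and 5 lower of the 151 EMB genes. The families named RPL and RPS had lower medians than NRPB, -0.91 (16 of 21 below 0) and -0.90 (20 of 23 below 0). RPS2 and RPS6 each name more than 1 tested gene, so these counts follow symbols and are not counts of ribosomal proteins.

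Cytokinin response factors (CRF), AP2-type transcription factors downstream of cytokinin, were below 0 in 11 of 11 (median -0.84). Both the type-A response regulators and the family named RR (11 of 11 above 0) went the other way. CRF5 had 0.980, 1.27 and 0.537 FPKM in wox5-1 cells, against 2.86, 10.1 and 3.59 FPKM in wild-type cells (log2 change -1.61, SE 0.58, adjusted p = 0.771). CRF11 had 5.80, 3.81 and 3.601 FPKM in wox5-1 cells, against 7.76, 9.85 and 9.81 FPKM in wild-type cells (-0.92, SE 0.46, adjusted p = 0.771). These were the 2 of 11 CRF genes without overlap, beside 3.96% of all genes lower without overlap.

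Families above 0 included signalling peptides and kinases, which were not those with the highest medians. Higher medians were those of LCR (1.02, 27 of 32 above 0), SCRL (1.01, 10 of 11), PIP (0.87, 15 of 16) and MIR (0.84, 35 of 49). Some of these members reached 1 FPKM in wox5-1 libraries only, among them LCR16, SCRL13 and MIR849, and MIR838 did so in wild-type libraries only. For such genes the filter fixed the direction. Families are symbol prefixes, so PIP pools genes such as PIP1A with PIP5K genes such as PIP5K1. CLE peptide genes were above 0 in 19 of 22 (median 0.69), with CLE40, described above, among the exceptions. CLE27 had 5.73, 8.80 and 4.63 FPKM in wox5-1 cells, against 0.696, 1.70 and 0 FPKM in wild-type cells (log2 change 2.11, SE 0.57, adjusted p = 0.771). CLE7 had 5.51, 14.1 and 16.6 FPKM in wox5-1 cells, against 1.66, 2.03 and 3.64 FPKM in wild-type cells (1.84, SE 0.57, adjusted p = 0.771). Each wox5-1 value of CLE27 and CLE7 lay above each wild-type value. Of the 22 CLE genes 5 were higher and 1 lower without overlap, beside 7.09% and 3.96% of all genes. CIPK kinases, which act with calcium sensors, were above 0 in 18 of 21 (median 0.65) and 6 of the 21 had no overlap, beside 7.09% of all genes higher without overlap. Wall-modifying XTH enzymes were above 0 in 18 of 22 (median 0.81), but 0 of the higher ones lacked overlap, and XTH12 had 263, 139.3 and 319.2 FPKM in wox5-1 cells, against 14.5, 335.8 and 3.75 FPKM in wild-type cells. Wild-type library 3, which had the highest epidermis sum, was thus also the highest for XTH12.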
